A study of Yarrowia lipolytica CLIB122 with 6 samples.

Results

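The FPKM table held 6452 transcripts. Of these, 51 met a rule that asked for a mean level in strain A24 of at most 0.5 times that in strain C24. The rule worked on the measured values. A transcript had to carry an NCBI gene number below 7000000, a mean over the 6 libraries that reached 10 FPKM, a ratio of the strain means (A24/C24) of at most 0.5 and 3 A24 values that all lay below the 3 C24 values. The rule's condition of no overlap was met, at any size of decrease, by 44.2% of the transcripts of this abundance, and 28.6% were higher in A24 without overlap. The difference between the strains chose these transcripts, and their values are given as a description, with no test. FPKM, fragments scaled by transcript length and by the mapped fragments of the library, is a relative unit, and in a culture fewer cells with a transcript cannot be told apart from less of it per cell.

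The libraries came from 2 strains of the yeast Yarrowia lipolytica, with 3 libraries of A24 and 3 of C24, all from cells taken at 24 h in rich YPD medium. A24 was read as YlΔA1-FAR, in which CRISPR/Cas9 was used to disrupt YALI0_A00913g (the A1 gene), and C24 as WT-FAR, the control without this disruption. Both strains share the background ATCC 201249, which carries mutant alleles of ura3, leu2 and lys8 and an HA-tagged PEX17, and both hold the same FAR cassette with a LEU2 marker at the IntF site, under the constitutive TEFin promoter. This reading rests on the strain letters and on the comparison that the study describes, and the level of the A1 gene itself, which would check it, was not analysed here. The labels do not say whether replicates came from separate cultures. Whether each strain is 1 clone is not given in the sources used here.

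Yarrowia lipolytica is an oleaginous yeast, known for storing large amounts of lipid and for its use as a host for making fatty acid derivatives. The bacterial enzyme FAR reduces acyl chains bound to coenzyme A to fatty alcohols and so draws on the same precursors as lipid storage. The A1 protein is weakly similar to Ynd1 of Saccharomyces cerevisiae, an apyrase of the Golgi that hydrolyses nucleoside triphosphates and diphosphates and is linked there to protein glycosylation. The tables used here give no product name for any of the 51 transcripts, so they are called by their gene numbers and, for 48 of them, by the YALI1 locus tag of the RefSeq annotation of strain CLIB89 (assembly ASM176148v1). No role is given for a transcript without an annotation.

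Among the 5039 transcripts that met the limits on gene number and mean level, these 51 made up 1.01%, against 165 transcripts (3.27%) that were at least doubled in A24 without overlap. The median A24/C24 ratio of the 51 was 0.402, a log2 ratio of -1.32, where the median over the 5039 was a log2 ratio of -0.09 with the central 50% between -0.28 and 0.17. The decrease was 10-fold or more in 3 transcripts, 5-fold to 10-fold in 5, 3-fold to 5-fold in 12 and between 2-fold and 3-fold in 31. The 51 means ran from 2.91 to 1003 FPKM in A24 with a median of 20.5, and from 15.3 to 2316 FPKM in C24 with a median of 51.0. Over the 5039 these medians were higher, 61.9 FPKM in A24 and 61.8 FPKM in C24. In A24 the mean of 15 of them was below 10 FPKM, the limit that all 51 passed over the 6 libraries together.

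**Figure D1:**
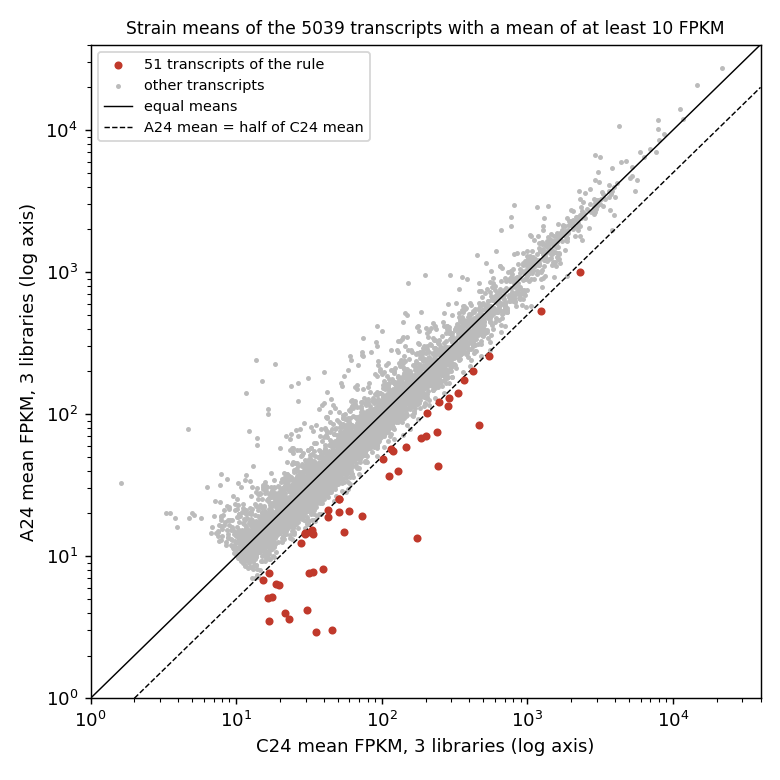
Mean FPKM in A24 (vertical, log axis) against mean FPKM in C24 (horizontal, log axis) for the 5039 transcripts whose overall mean reached 10 FPKM, 3 libraries a strain. The 51 transcripts chosen by the rule lie on or below the dashed line, where the ratio of the means is 0.5, and most of the other transcripts lie near the solid line of equal means.

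Limma, fitted on log2(FPKM + 0.1) over the 6052 transcripts whose overall mean reached 1 FPKM, called 164 of them lower in A24 (2.71%) by a log2 fold change below -1 together with an adjusted p-value under 0.05. Of the 51 transcripts, 50 were among these calls. The rule used the same contrast, so this count says nothing further about them. The exception was 2908826 (YALI1_F29540g), with a limma log2 fold change of -0.998 that fell just short of the limit.

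The lowest ratio belonged to 2910055 (YALI1_C20054g), with 2.84, 3.23 and 2.98 FPKM in the A24 libraries, against 46.7, 44.9 and 44.7 FPKM in the C24 libraries, a 15.1-fold decrease. 2907004 (YALI1_B26033g) followed with 14.8, 13.9 and 11.4 FPKM in the A24 libraries, against 177, 172 and 174 FPKM in the C24 libraries, 13.0-fold lower. Its level in C24 was the highest of the 3 transcripts lowered 10-fold or more. 2908398 (YALI1_F10866g) had 2.42, 2.82 and 3.49 FPKM in the A24 libraries, against 37.1, 35.1 and 33.8 FPKM in the C24 libraries, which was 12.1-fold lower. For each of these transcripts the lowest C24 library was at least 9 times the highest A24 library.

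A further 5 transcripts were lowered 5-fold to 10-fold. 2908794 (YALI1_F30034g) was listed at 4.17, 4.16 and 4.17 FPKM in the A24 libraries, against 32.4, 28.0 and 31.3 FPKM in the C24 libraries, a 7.33-fold decrease with A24 values that differed by no more than 0.01 FPKM. 2908617 (YALI1_F21467g) had 3.26, 3.65 and 3.85 FPKM in the A24 libraries, against 23.0, 23.3 and 22.8 FPKM in the C24 libraries (6.42-fold). 2906260 (YALI1_A19070g) had 4.65, 3.91 and 3.30 FPKM in the A24 libraries, against 22.7, 21.9 and 20.2 FPKM in the C24 libraries (5.47-fold). These 3 had levels of only a few FPKM in A24, whereas the other pair was abundant. 2906088 (YALI1_A12540g) reached 90.5, 87.0 and 73.8 FPKM in the A24 libraries, against 476, 473 and 455 FPKM in the C24 libraries, and was 5.58-fold lower. 2908687 (YALI1_F18740g) had 40.3, 49.7 and 39.5 FPKM in the A24 libraries, against 249.7, 253 and 232 FPKM in the C24 libraries, a 5.67-fold decrease in which A24 replicate 2 was the highest of its strain.

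The 4 transcripts lowered between 4-fold and 5-fold all had under 10 FPKM in A24. 2908289 (YALI1_F36584g) had 8.35, 8.34 and 7.84 FPKM in the A24 libraries, against 42.1, 38.3 and 37.8 FPKM in the C24 libraries. 2909521 (YALI1_C18099g) was close to it, with 8.08, 7.92 and 7.41 FPKM in the A24 libraries, against 35.3, 32.5 and 32.8 FPKM in the C24 libraries. 2910081 (YALI1_C24400g) had 7.59, 6.54 and 8.76 FPKM in the A24 libraries, against 32.2, 32.3 and 30.0 FPKM in the C24 libraries. The last, 2912838 (YALI1_E15502g), had the lowest mean of the 51 over all 6 libraries and varied more than the other 3, with 3.30, 4.27 and 2.95 FPKM in the A24 libraries, against 19.3, 15.0 and 16.2 FPKM in the C24 libraries. Its mean over all libraries, 10.2 FPKM, was just above the limit of the rule.

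Decreases of 3-fold to 4-fold were seen in 8 transcripts that spanned a wide range of levels. The most abundant was 2911016 (YALI1_D31624g), with 76.4, 71.3 and 77.5 FPKM in the A24 libraries, against 252, 239.6 and 230.0 FPKM in the C24 libraries, 3.20-fold lower. 2910729 (YALI1_D14058g) averaged 40.1 ± 3.64 FPKM in A24 and 129 ± 6.40 FPKM in C24 (SD, n = 3 each), and 2908634 (YALI1_F15477g) averaged 36.9 ± 3.89 FPKM in A24 and 113 ± 6.18 FPKM in C24. 2906343 (YALI1_A03549g) averaged 19.1 ± 0.927 FPKM in A24 and 73.4 ± 5.08 FPKM in C24. 2908155 (YALI1_F02592g) averaged 14.9 ± 0.575 FPKM in A24 and 55.1 ± 2.86 FPKM in C24. The rule had required a gap between the strains in these 5 transcripts, so the SDs only describe the spread within a strain. The other 3 were weaker, with 5.17 ± 0.416 FPKM in A24 and 17.7 ± 1.03 FPKM in C24 for 2910279 (YALI1_D26671g), and with 5.12 ± 0.0954 FPKM in A24 and 16.7 ± 0.601 FPKM in C24 for 2909633 (YALI1_C31510g). 2911117, which has no locus tag in the RefSeq table, had 7.19, 7.65 and 4.07 FPKM in the A24 libraries, against 22.2, 21.4 and 15.8 FPKM in the C24 libraries. Replicate 3 was the lowest of both strains.

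**Figure D2:**
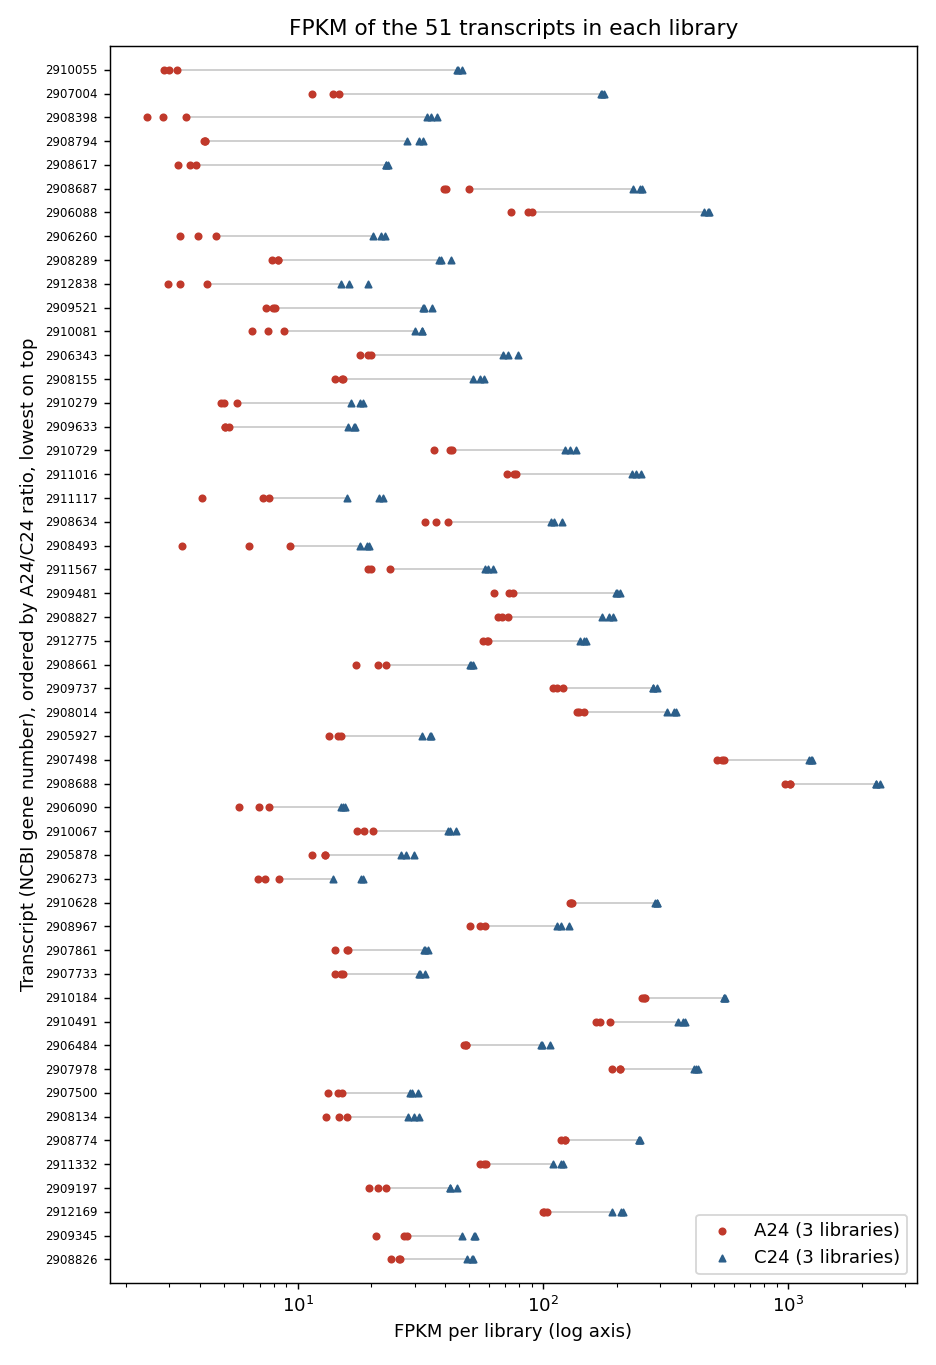
FPKM of the 51 transcripts in each library (horizontal, log axis), ordered by the A24/C24 ratio with the lowest ratio on top. Circles are the 3 A24 libraries and triangles the 3 C24 libraries, and the grey line spans the gap between them, which is present in every row because the rule required it.

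Most of the abundant transcripts among the 51 were lowered by little more than the limit. 2908688 (YALI1_F27211g) was the highest, with 1016, 1022 and 971 FPKM in the A24 libraries, against 2365, 2291 and 2291 FPKM in the C24 libraries, a 2.31-fold decrease. 2907498 (YALI1_B22614g) came next with 546, 536 and 514 FPKM in the A24 libraries, against 1239.8, 1248 and 1214 FPKM in the C24 libraries (2.32-fold). 2910184 (YALI1_D19721g) had 257, 254 and 261 FPKM in the A24 libraries, against 546, 549.6 and 554 FPKM in the C24 libraries (2.14-fold). Within each strain the 3 libraries of these transcripts lay within a few percent of each other. 2907978 (YALI1_F25570g) had 205, 191 and 206 FPKM in the A24 libraries, against 420.1, 412 and 430.1 FPKM in the C24 libraries. 2910491 (YALI1_D08339g) had 188, 171 and 164 FPKM in the A24 libraries, against 374, 355 and 381 FPKM in the C24 libraries. 2908014 (YALI1_F02199g) had 147, 138 and 139.8 FPKM in the A24 libraries, against 348, 341 and 320.1 FPKM in the C24 libraries. These ratios lay between 0.42 and 0.48. Nearby ratios were found for 2910628 (YALI1_D05244g), with 129, 131 and 132 FPKM in the A24 libraries, against 285, 291 and 292 FPKM in the C24 libraries. 2908774 (YALI1_F30479g) had 123, 123 and 119 FPKM in the A24 libraries, against 246, 248 and 247 FPKM in the C24 libraries, and 2909737 (YALI1_C20429g) had 109, 114 and 120.4 FPKM in the A24 libraries, against 292, 282 and 282 FPKM in the C24 libraries. Of the 7 transcripts with a C24 mean of at least 300 FPKM, 1 was lowered by 4-fold or more, 2906088 (YALI1_A12540g), and their median decrease was 2.31-fold. The median decrease was 2.50-fold in the 21 transcripts with a C24 mean of 50 to 300 FPKM, of which 2 were lowered by 4-fold or more. It was 3.14-fold in the 23 transcripts under 50 FPKM, of which 9 were lowered by 4-fold or more. The limit on the mean admits a weaker transcript more readily when its decrease is small, so these medians are a description of the 51 only.

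The remaining transcripts were lowered between 2-fold and 3-fold. With 2.5-fold to 3-fold decreases, 2909481 (YALI1_C10762g) averaged 70.6 ± 6.33 FPKM in A24 and 202 ± 3.92 FPKM in C24, 2908827 (YALI1_F29596g) 68.5 ± 3.25 FPKM in A24 and 185 ± 9.88 FPKM in C24 and 2911567 (YALI1_E19036g) 21.0 ± 2.43 FPKM in A24 and 60.0 ± 2.27 FPKM in C24 (SD, n = 3 each). Those nearer to 2-fold included 2912775 (YALI1_E32054g) with means of 58.6 and 146 FPKM in A24 and C24, 2911332 (YALI1_D18167g) with 57.1 and 116 FPKM, 2908967 (YALI1_F14290g) with 54.7 and 119.9 FPKM and 2906484 (YALI1_A18817g) with 48.4 and 102 FPKM. The C24 means of these transcripts lay between 60.0 and 202 FPKM. At lower levels, the A24 and C24 means were 20.5 and 51.0 FPKM for 2908661 (YALI1_F23963g), 18.8 and 42.4 FPKM for 2910067 (YALI1_C24730g), 21.3 and 42.8 FPKM for 2909197 (YALI1_C353g) and 14.4 and 33.9 FPKM for 2905927 (YALI1_A21372g). They were 15.3 and 33.3 FPKM for 2907861 (YALI1_F24963g), 14.9 and 31.9 FPKM for 2907733 (YALI1_F05220g), 14.3 and 29.6 FPKM for 2907500 (YALI1_B12375g) and 14.5 and 29.7 FPKM for 2908134 (YALI1_F36332g). The pair without a locus tag among these, 2905878 and 2906090, had means of 12.5 and 27.9 FPKM and 6.77 and 15.3 FPKM. 2906273 (YALI1_A04533g) had 8.39, 6.92 and 7.38 FPKM in the A24 libraries, against 18.5, 18.1 and 14.0 FPKM in the C24 libraries, with C24 replicate 3 well below replicates 1 and 2.

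Several transcripts lay close to a limit of the rule. Just inside the ratio of 0.5 were 2908826 with a ratio of 0.4999, 2909345 (YALI1_C21083g) with 0.499 and 2912169 (YALI1_E04672g) with 0.4987. 2908826 had 25.9, 24.1 and 26.2 FPKM in the A24 libraries, against 51.5, 49.1 and 51.8 FPKM in the C24 libraries. 2909345 had 27.0, 20.9 and 28.0 FPKM in the A24 libraries, against 53.0, 46.7 and 52.5 FPKM in the C24 libraries. 2912169 had 104, 101 and 99.8 FPKM in the A24 libraries, against 208, 191 and 213 FPKM in the C24 libraries. Just outside was 2907995 (YALI1_F32287g), with a ratio of 0.5001 and 888, 941 and 999.7 FPKM in the A24 libraries, against 1879.6, 1842 and 1935 FPKM in the C24 libraries, an abundant transcript that the rule left out by a margin far below the spread of its libraries. Next came 2909556 (YALI1_C25512g) with a ratio of 0.504, and 2906906 (YALI1_B23237g), also with 0.504. Between the ratios of 0.50 and 0.55 there were 32 further transcripts without overlap, against 16 of the 51 with a ratio between 0.45 and 0.50.

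At the limit of 10 FPKM, 2912838, 2909633 and 2906090 were just inside, with means over the 6 libraries of 10.2, 10.9 and 11.0 FPKM. Just outside were 2907428 (YALI1_B27968g) with a mean of 8.96 FPKM, 2912610 (YALI1_E30561g) with 8.92 FPKM and 2911786 (YALI1_E23790g) with 8.14 FPKM. In 2907428 the A24 values were 3.35, 3.48 and 3.49 FPKM and the C24 values 14.7, 14.8 and 14.0 FPKM, a lower ratio than in most of the 51. In all, 225 transcripts met every condition except the mean level, and 3 met every condition except the gene number. No transcript was left out for an overlap alone.

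As a group, the 51 transcripts made up a small part of the summed FPKM. They held 0.302%, 0.297% and 0.284% of the total in the A24 libraries, against 0.798%, 0.768% and 0.768% in the C24 libraries. Their summed level was 3762 ± 67.7 FPKM in A24 and 9488 ± 133 FPKM in C24 (SD, n = 3 each), a ratio of 0.396. A few abundant transcripts set this sum. 2908688 alone accounted for 22.9% of the summed difference, the pair with the largest differences for 35.2% and the leading 10 for 67.1%. The total over all transcripts was 1266078 to 1303563 FPKM in the A24 libraries and 1208546 to 1226334 FPKM in the C24 libraries, and how many fragments lie behind them is unknown. Pearson correlations of log2(FPKM + 0.1) across transcripts were 0.993 to 0.996 within a strain and 0.964 to 0.969 between the strains.

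**Figure D3:**
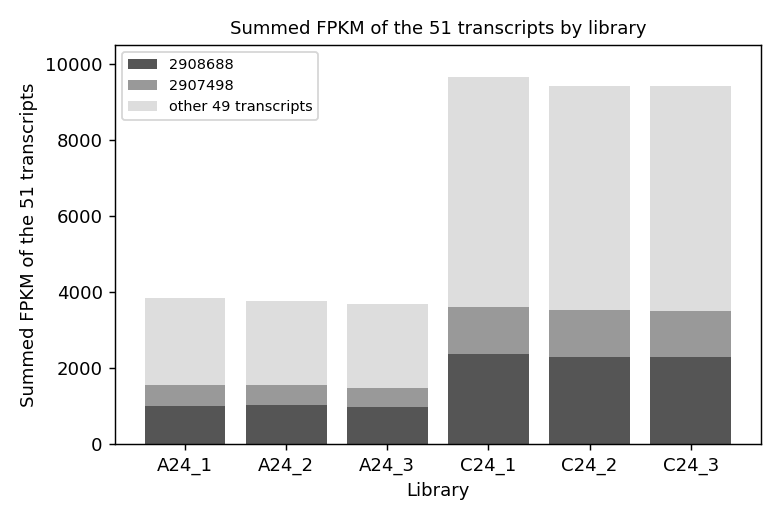
Summed FPKM of the 51 transcripts in each library, with 2908688, 2907498 and the other 49 transcripts stacked. The 3 A24 bars end between 3696 and 3832 FPKM and the 3 C24 bars between 9406 and 9641 FPKM.

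The rule required a gap between the strains in all of the 51 transcripts, and its size is given as a description. In 38 of them the lowest C24 library was at least 2 times the highest A24 library, so that all 9 ratios between single libraries were at most 0.5, and in the other 13 at least 1 of these ratios was higher. The smallest gap was 1.67-fold. Libraries of one strain differed little. In A24 the SD was a median of 6.67% of the mean over the 51, against 4.36% over the 5039, and in C24 it was 4.28% against 3.84%. In A24 this was also read within ranges of the mean, where the counts over the 5039 include the 51. For A24 means under 10 FPKM the median was 9.94% in 15 of the 51 and 7.24% in 69 transcripts. Levels were not matched there, since an overall mean of at least 10 FPKM with a very low A24 mean implies a ratio under 0.5. For A24 means of at least 50 FPKM the median was 3.33% in 17 of the 51 and 3.80% in 2824 transcripts, and for means of 10 to 50 FPKM it was 7.70% in 19 of the 51 and 5.13% in 2146 transcripts. Below 50 FPKM the A24 median was thus higher in the 51, and above it slightly lower. Levels were not matched within these other ranges either, so the medians cannot separate the spread of the 51 from their level. For C24 means of 10 to 50 FPKM the median was 4.72% in 23 of the 51 and 5.00% in 2072 transcripts. For C24 means of at least 50 FPKM it was 3.73% in 28 of the 51 and 3.18% in 2894 transcripts.

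An SD of 10% of the mean or more was found in 14 of the 51 transcripts in A24 and in 3 in C24. The widest spread was that of 2908493 (YALI1_F11905g), with 9.32, 3.38 and 6.32 FPKM in the A24 libraries, against 19.2, 19.6 and 17.9 FPKM in the C24 libraries. Its A24 SD was 46.8% of the mean, with replicate 2 low and replicate 1 high, whereas its C24 values were close together. In 2911117 the SD was 30.9% of the mean in A24 and 17.4% in C24. In A24 the libraries ranked across the 51 much as they did over all. The highest A24 value was in replicate 1 for 43.1% of the 51 and 43.6% of the 5039, and in replicate 2 for 19.6% of the 51 and 18.4% of the 5039. In C24 they ranked differently from the rest, with replicate 1 highest for 54.9% of the 51 against 35.6% of the 5039, and replicate 3 lowest for 47.1% of the 51 against 21.1% of the 5039. These differences in rank were small in size, with a median log2 deviation from the C24 mean of 0.03 in replicate 1 and -0.02 in replicate 3.

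**Figure D4:**
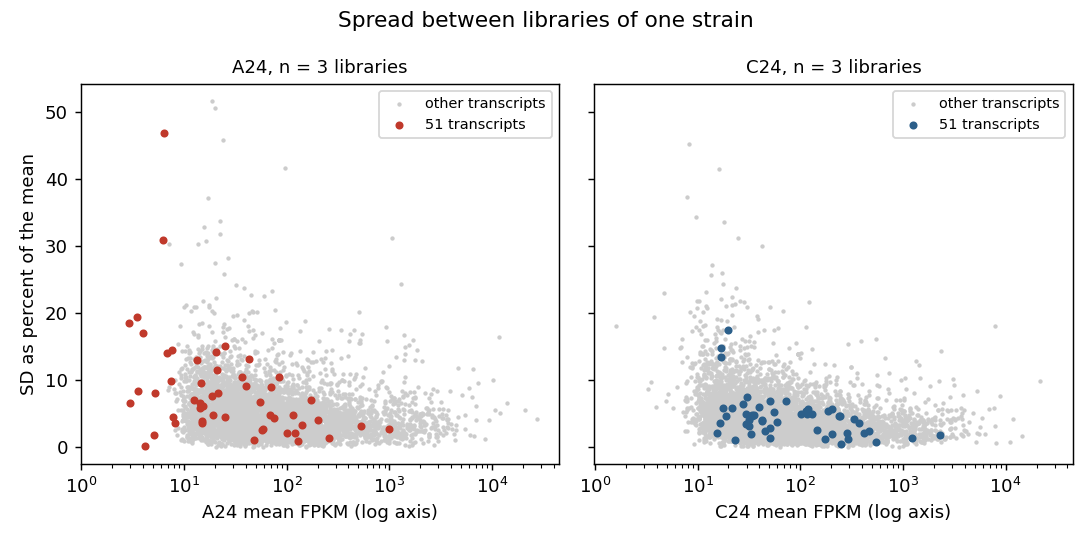
SD between the 3 libraries of a strain as a percent of the mean (vertical) against the mean FPKM of that strain (horizontal, log axis), for A24 on the left and C24 on the right. Coloured points are the 51 transcripts and grey points the others whose overall mean reached 10 FPKM, and 2908493 lies highest among the coloured points in A24, at 46.8%.

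The positions of the transcripts were not used by the rule. The RefSeq table placed 48 of the 51 on a chromosome, and 4923 of the 5039. Chromosome F held 19 of the 48 (39.6%), against 21.9% of the 4923. Chromosome C held 9 (18.8%, against 13.6%), chromosome D 7 (14.6%, against 17.6%) and chromosome A 6 (12.5%, against 8.69%). Chromosome E held 4 (8.33%, against 23.1%) and chromosome B 3 (6.25%, against 15.2%). Read per chromosome, 1.76% of the transcripts on F and 1.4% of those on A were among the 51, and 0.352% of those on E. The transcripts doubled in A24 were spread otherwise, with 2.78% of those on F and 3.70% of those on E. Transcripts are not replicates, and no test was made of these shares.

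Of the 48 placed transcripts, 2 (4.17%) stood next to another of the 51 in the order of measured genes and 6 (12.5%) within 5 measured genes of one. Of the other placed transcripts of this abundance, 1.44% stood next to one of the 51 and 7.38% within 5 measured genes. The adjacent pair was 2908826 (YALI1_F29540g) and 2908827 (YALI1_F29596g) on chromosome F. 2908827 had 68.1, 65.5 and 72.0 FPKM in the A24 libraries, against 194, 174 and 186 FPKM in the C24 libraries. On the other side of 2908826 lay 2908824 (YALI1_F29483g), which was higher in A24, with 580.3, 601 and 602 FPKM in the A24 libraries, against 296, 284 and 283 FPKM in the C24 libraries. The others within 5 measured genes formed 2 further pairs. One was 2906484 (YALI1_A18817g) and 2906260 (YALI1_A19070g) on chromosome A, with decreases of 2.10-fold and 5.47-fold. The other was 2908134 (YALI1_F36332g) and 2908289 (YALI1_F36584g) on chromosome F, with decreases of 2.04-fold and 4.82-fold. The strand of these genes is not in the tables used here, so reads from overlapping neighbours cannot be told apart.

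Immediate neighbours outside the 51 were read beside all transcripts of like abundance. At 10 FPKM or more, a ratio of at most 0.5 would have placed most of them among the 51. The rule thus bounded their decreases, and they are not set against the 48 placed transcripts. The 48 had 96 different measured neighbours, of which 70 had a mean of at least 10 FPKM and were not among the 51. The log2 ratios of the 70 ran from -0.75 to 2.03 with a median of -0.05. A ratio between 0.8 and 1.25 was found for 45 of the 70, a lower one for 13 and a higher one for 12. Over the 5039 transcripts, 63.0% had a ratio between 0.8 and 1.25 and 20.6% a lower one. A further 24 neighbours had a mean under 10 FPKM, and most of these were lower in A24. A ratio below 0.8 was found for 15 of the 24 (62.5%), against 47.7% of the 1060 placed transcripts under 10 FPKM. The log2 ratios ran from -3.89 to 0.79 with a median of -0.68 in 23 of the 24. The median was -0.27 in 1040 placed transcripts under 10 FPKM. The remaining 1 was listed at 0 in all A24 libraries and at 0.11 FPKM in each C24 library. The lowest ratio, in 2910183 (YALI1_D19623g), came from 0.08, 0 and 0 FPKM in the A24 libraries, against 0.30, 0.45 and 0.44 FPKM in the C24 libraries. A mean under 1 FPKM was found for 6 of the 24, and such ratios rest on values near 0. Limma was fitted only from a mean of 1 FPKM, so these 6 could not be called. Among the rest of the 24 it called 2 lower, 2907734 (YALI1_F05253g) beside 2907733 and 2912837 (YALI1_E15492g) beside 2912838. The share of such calls among all transcripts of 1 to 10 FPKM was not computed, so this count is only a description. At every distance up to 5 measured genes on either side, the median log2 ratio of the neighbours of at least 10 FPKM lay between -0.22 and -0.03.

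**Figure D5:**
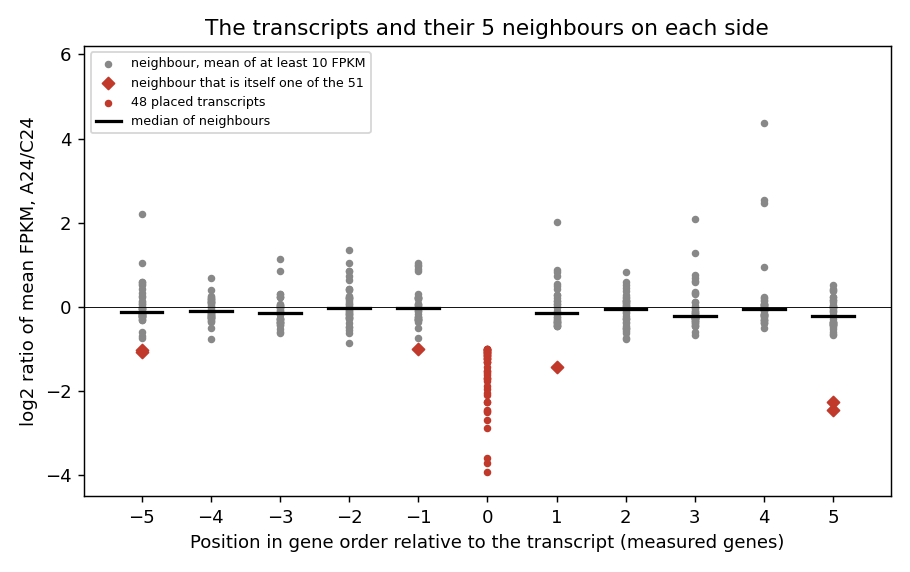
Log2 ratio of mean FPKM (A24/C24, vertical) of the 48 placed transcripts at position 0 and of the measured genes up to 5 places away on each side (horizontal), for neighbours whose overall mean reached 10 FPKM. Black bars are the medians of the neighbours, between -0.22 and -0.03, diamonds are neighbours that are themselves among the 51, and the highest grey point, 4 places after 2908634, is at 4.36.

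Some of the 51 lay near transcripts that were higher in A24. These were singled out after their values were seen. 2912838 (YALI1_E15502g), 4.80-fold lower, was followed by 2912839 (YALI1_E15521g), which was higher, with 31.8, 28.5 and 34.3 FPKM in the A24 libraries, against 7.38, 7.47 and 8.35 FPKM in the C24 libraries. It was preceded by the weak transcript 2912837 (YALI1_E15492g), with 3.11, 3.89 and 3.10 FPKM in the A24 libraries, against 7.13, 6.46 and 7.35 FPKM in the C24 libraries. Near 2908634 (YALI1_F15477g), 3.06-fold lower, the measured genes 3 and 4 places further on were both higher in A24. 2908637 (YALI1_F15568g) had 255, 246 and 269.8 FPKM in the A24 libraries, against 58.3, 63.9 and 60.0 FPKM in the C24 libraries. 2908638 (YALI1_F15641g) had 32.7, 28.0 and 38.4 FPKM in the A24 libraries, against 1.29, 1.86 and 1.67 FPKM in the C24 libraries, a ratio of 20.6 and the highest among the 5039. Placed 4 genes after 2910067 (YALI1_C24730g), 2910075 (YALI1_C24891g), had 857, 842 and 819 FPKM in the A24 libraries, against 147, 150.5 and 157 FPKM in the C24 libraries. In these 3 regions, transcripts that were lower and higher in A24 thus lay within 4 measured genes of each other. The list is not complete. For example, 2909561 (YALI1_C00464g), 4 genes after 2909197 (YALI1_C353g), had a ratio of 5.80. In the same way, 2909672 (YALI1_C31408g), 2 genes before 2909633 (YALI1_C31510g), had a ratio of 2.54. How often transcripts outside the 51 have a raised gene within 4 places was not counted, so these regions are only a description. Of the 70 immediate neighbours of at least 10 FPKM outside the 51, 2 were at least doubled in A24. Over the 5039 transcripts, 3.27% were at least doubled without overlap.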

How the data were processed

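RNA-Seq was performed on 6 libraries, 3 of A24 and 3 of C24. According to the study's methods and the submitters' processing notes, rRNA was removed, reads from the BGISEQ-500 platform were filtered with SOAPnuke, and expression was calculated with RSEM (1.2.12), and the notes also name HISAT2 (2.0.4), Bowtie2 (2.2.5) and DESeq2 (1.4.5). The authors deposited FPKM values rounded to 2 decimals. The genome build is not given in the sources used here. Fragment numbers are unknown, so no counting error is given.

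The rule was applied to these values as deposited, without scaling or a pseudocount. Limma (version 3.58.1, R 4.3.3, eBayes with a trend, Benjamini-Hochberg adjustment) was fitted on log2(FPKM + 0.1). It was limited to transcripts whose mean over all libraries reached 1 FPKM. It was tested on simulated data with log2 shifts of 0, 1.5 and 2. No shift near the call limit of 1 was simulated, so that test does not cover decreases close to 2-fold. NOISeq, which the methods name, was not run. Python 3.11, pandas 2.3.3 and matplotlib 3.10.9 were used for tables and figures. The RefSeq table of assembly ASM176148v1 gave locus tags, chromosomes and gene order for 6073 of the 6452 transcripts, and none of its coordinates were used in the text. The transcripts and lists were chosen with earlier results of these data known. Values per library are given for the 10 transcripts with the highest C24 means, the 10 with the lowest ratios, those nearest to a limit, neighbours and those with a wide spread, and others mostly as means. Product classes, promoters, homologs and the A1 gene, which were planned, were not analysed here, since these tables hold no product names, sequences or YALI0 tags.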

Additional observations from a re-analysis of the deposited data

How the results depend on the processing

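The number of transcripts that met the rule, 51, was 24 with a ratio of at most 0.4 and 125 with at most 0.6. It was 276 with no filter on the mean. Median-of-ratios scaling gave 39, all among the 51, and raised the median log2 ratio of the 5039 transcripts by 0.09. Equal FPKM totals gave 64, which included the 51, and moved that median by -0.07. With 1 library left out in turn the number ran from 46 to 56, and 44 to 50 of the 51 were kept. Leaving out C24 replicate 1 or C24 replicate 3 kept the fewest, 44 each.

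The median log2 ratio of the 51, -1.32, was -1.23 after median-of-ratios scaling and -1.39 with equal totals, and lay between -1.35 and -1.28 with 1 library left out. The number of limma calls lower in A24, 164, was 101 with a pseudocount of 1, 54 with a filter of 10 FPKM and 247 without a filter, and 151 to 177 with 1 library left out. With the replicate number as a block it was 166, which included the 164, and it stayed within 1.5 times of 164 under the other settings run. Deviations from the strain means of libraries that share a number had correlations of -0.02, 0.04 and 0.08 across transcripts. Such a correlation cannot show a shift that is common to all transcripts of a library. Among the transcripts within the limits on gene number and mean level, replicate 2 was the lowest library for 46.5% in A24 and 53.0% in C24. Its median log2 deviation there was -0.02 in A24 and -0.03 in C24, and that of the other libraries was positive in both strains. Whether the numbers pair the libraries was not tested further. Within 5 measured genes of another of the 51 stood 6 transcripts, in place of 2 immediate neighbours. The unknown number of fragments limits the weak transcripts most, since 15 of the 51 had an A24 mean under 10 FPKM.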

Other observations

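Transcripts whose identifiers begin with BGI_novel lie outside the rule, since they carry no gene number, but 3 of them met its other conditions. BGI_novel_G000036 had 688, 630.1 and 593 FPKM in the A24 libraries, against 1420.1, 1240.4 and 1385 FPKM in the C24 libraries, a ratio of 0.472 at a level that only 2908688 among the 51 exceeded in A24. BGI_novel_G000040 had 139.6, 149.7 and 110.2 FPKM in the A24 libraries, against 316, 296 and 279 FPKM in the C24 libraries, a ratio of 0.448. BGI_novel_G000042 had 30.6, 33.5 and 28.9 FPKM in the A24 libraries, against 71.9, 60.6 and 62.4 FPKM in the C24 libraries, a ratio of 0.477. Their A24 and C24 values did not overlap.

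The 51 transcripts were not spread evenly over the rows of the deposited table. The last 100 rows, 1.55% of the table, held 18 of them, against 2 of the 165 transcripts that were at least doubled in A24 without overlap. How the authors ordered the rows is not given in the sources used here, and the order was not used in any comparison.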
